A study of Homo sapiens with 4 samples.

Results

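Apical-basal polarity and apical scaffold genes were followed in A549, an established cell line from a human lung adenocarcinoma. The set holds 10 genes taken by symbol from the 26255 symbols of the deposited tables: PARD3, PARD6B, PRKCI, CRB3, LLGL2, SCRIB, EZR, MSN, SLC9A3R1 and PODXL. The cells, all of WT genotype, had been kept for 5 days with 5% serum in 4 settings, each with 1 library: 3D culture on solidified Matrigel (a gelled basement membrane extract) in hypoxia at 1% oxygen, 3D culture in normoxia, 2D culture on an ordinary dish in hypoxia, and 2D culture in normoxia. The study looked at structures resembling micropapillary tumour growth, which form in 3D under hypoxia. Micropapillary tumour clusters are known for inverted polarity, with the apical surface turned outwards, which is the question behind this set.

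An epithelial cell keeps an apical surface, which faces a lumen, apart from the sides and base that touch neighbours and matrix. The apical domain is set up by the Par complex (PARD3, PARD6B and the atypical protein kinase C encoded by PRKCI) together with the Crumbs complex, of which CRB3 is the transmembrane part in epithelia. SCRIB and LLGL2 act on the basolateral side and oppose the apical kinase. At the apical membrane, ezrin (EZR) and moesin (MSN) tie membrane proteins to actin, SLC9A3R1 (NHERF1) is a PDZ-domain scaffold that joins them to their cargo, and PODXL encodes podocalyxin, a sialomucin of the apical surface that binds this scaffold.

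Levels are in FPKM, the fragments counted per kilobase of a transcript and per unit of library depth. All 10 genes were expressed by the limit used here, a mean of at least 1 FPKM over the 4 libraries, which 12663 genes met. Their means ran from 3.94 FPKM for PARD6B to 165.2 FPKM for MSN, so no gene of the set lay near the limit. Depth was estimated from the smallest steps in the values. A single fragment on a transcript of 1 kb was worth 0.0875 FPKM in 3D hypoxia, 0.0845 in 3D normoxia, 0.0257 in 2D hypoxia and 0.0409 in 2D normoxia, which puts the depth of both 3D libraries below that of both 2D libraries. The least covered value, CRB3 in 3D hypoxia, rested on about 75 fragments. With 1 library in each setting, a difference between a pair of libraries has no replicate check, and the counting errors given cover the sampling of fragments only. The oxygen labels were checked with CA9, a carbonic anhydrase induced by low oxygen, at 199.7 FPKM in 3D hypoxia, 4.05 in 3D normoxia, 138.5 in 2D hypoxia and 3.999 in 2D normoxia. Keratin genes marked the cells as epithelial (KRT8 at 1894 to 3731 FPKM), whereas EPCAM stood at 1.43 to 2.73 FPKM and the lung lineage genes NKX2-1, SFTPB, SFTPC and SFTPA1 summed to at most 0.139 FPKM in any library. The labelled lung origin is thus not visible in those lineage genes.

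Of the whole set, SLC9A3R1 and CRB3 rose in 3D culture and had RefSeq promoter windows, and EZR differed most between hypoxia and normoxia in 3D. Their windows are printed so that the sequence stands beside these responses. Each runs from 250 bases before the annotated start to 50 bases from it, in build GRCh38.p14. The windows lie at chr19:6464021-6464320 (plus strand) for CRB3, chr17:74748378-74748677 (plus strand) for SLC9A3R1 and chr6:158818186-158818485 (minus strand) for EZR. Capitals mark ACGTG or GCGTG on either strand, the core letters that hypoxia-inducible factors are known to bind.
CRB3: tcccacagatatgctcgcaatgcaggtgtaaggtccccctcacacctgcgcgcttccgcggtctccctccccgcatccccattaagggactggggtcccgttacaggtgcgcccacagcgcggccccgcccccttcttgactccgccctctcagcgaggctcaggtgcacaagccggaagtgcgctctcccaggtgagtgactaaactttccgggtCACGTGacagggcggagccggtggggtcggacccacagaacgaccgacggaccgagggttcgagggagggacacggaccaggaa
SLC9A3R1: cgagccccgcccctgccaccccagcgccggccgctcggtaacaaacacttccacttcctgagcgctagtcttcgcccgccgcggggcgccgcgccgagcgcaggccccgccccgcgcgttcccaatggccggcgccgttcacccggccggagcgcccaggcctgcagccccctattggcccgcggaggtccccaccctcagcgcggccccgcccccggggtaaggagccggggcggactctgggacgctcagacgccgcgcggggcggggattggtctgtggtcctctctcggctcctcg
EZR: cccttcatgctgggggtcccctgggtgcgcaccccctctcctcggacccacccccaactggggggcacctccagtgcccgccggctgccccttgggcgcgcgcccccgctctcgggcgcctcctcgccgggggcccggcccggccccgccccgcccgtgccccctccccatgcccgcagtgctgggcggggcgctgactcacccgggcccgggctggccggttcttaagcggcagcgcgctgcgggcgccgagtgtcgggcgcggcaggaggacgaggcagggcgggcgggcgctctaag

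Windows were found for 5 of the 10 genes, 6 windows in all, since MSN has a pair. SCRIB was left out of the search beforehand. CRB3 held CACGTG, in which ACGTG is read on both strands at overlapping positions, from 34 bases before the start. The windows of SLC9A3R1 and EZR held neither motif. PRKCI held GCGTG at 2 places. The second MSN window gave 3 readings of ACGTG, at -250, -147 and -146 from the start. The last pair is again a CACGTG read on both strands. Of the 35116 promoter windows of this length in the same table, 21.4% held ACGTG, 36.5% held GCGTG and 48.4% held at least either of them, so the motifs are common, and a match or its lack says nothing about binding.

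Across all 10 genes, PARD3 and PRKCI differed least between the libraries, and PODXL, CRB3 and SLC9A3R1 most. The ratio of the highest to the lowest library was 1.04 for PARD3 and 1.18 for PRKCI. It was 5.47 for PODXL, 4.03 for CRB3 and 3.85 for SLC9A3R1, and these 3 genes with PARD6B (2.01) were the 4 that reached 2. The highest level fell in 3D normoxia for 4 genes and in each of the other settings for 2. The set as a whole therefore had no shared direction: 4 genes stood above 0 and 6 below 0 in the average effect of hypoxia, with a median log2 effect of -0.07 against -0.01 for all genes, and again 4 and 6 in the average effect of culture, with medians of -0.06 and -0.03.

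**Figure D1:**
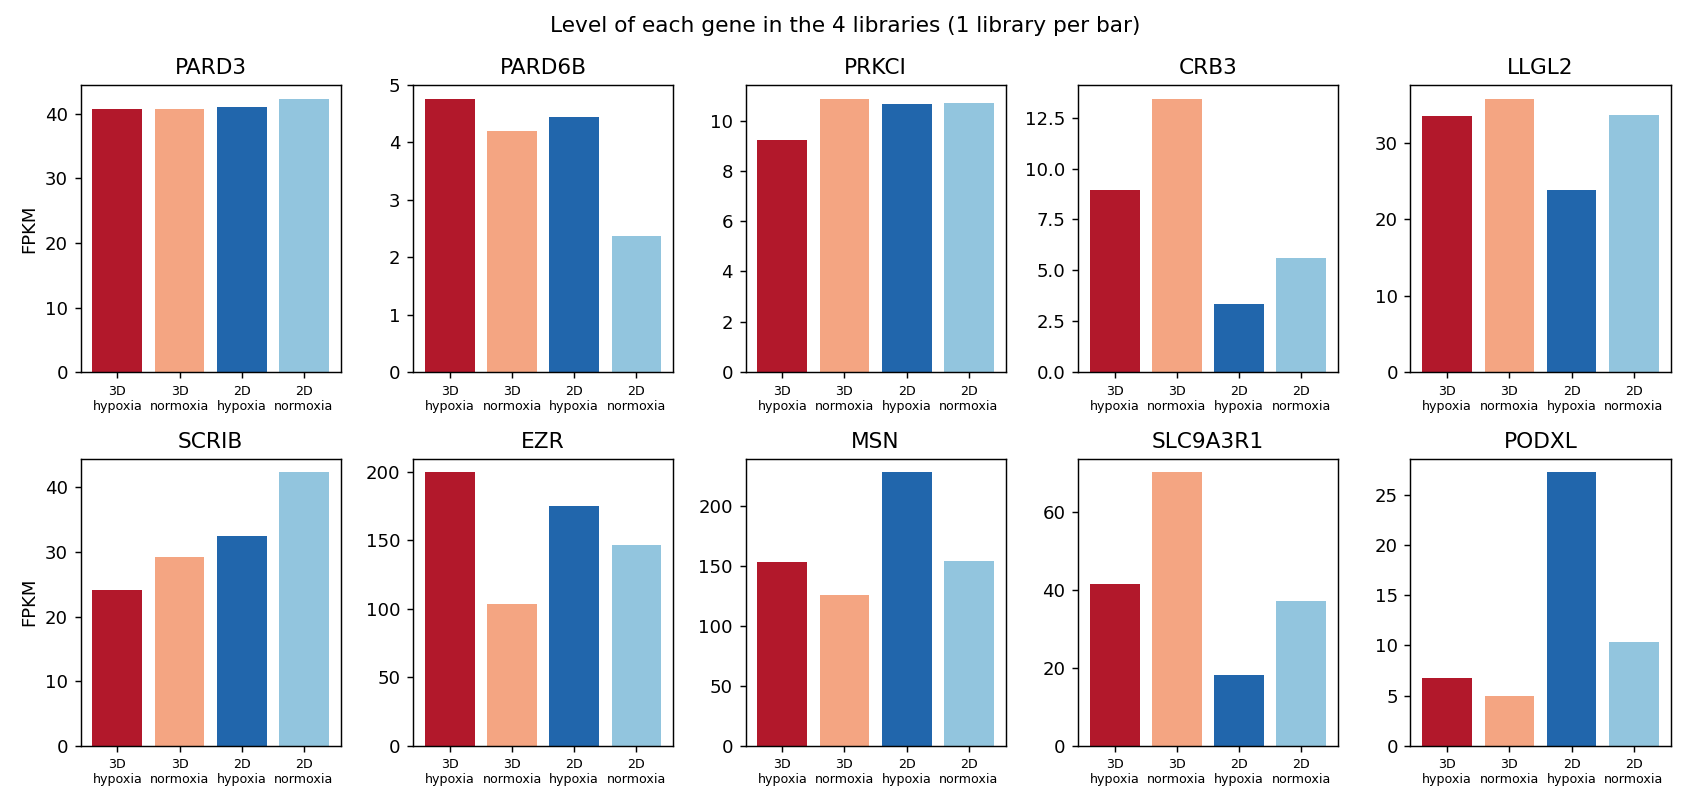
Level of each gene in FPKM (vertical axis, from 0) in 3D hypoxia, 3D normoxia, 2D hypoxia and 2D normoxia, with 1 library per bar and no error bars since there are no replicates. PARD3 and PRKCI are nearly level, CRB3 and SLC9A3R1 share an order, highest in 3D normoxia and lowest in 2D hypoxia, and PODXL stands highest in 2D hypoxia.

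Average effects of hypoxia and of culture were tested with limma over the 4 libraries, on log2(FPKM + 1), with Benjamini-Hochberg adjustment over all 12663 genes and a threshold of 0.05. The model leaves 1 residual degree of freedom, and no label says that the libraries came from separate experiments, so its p-values reflect how these 4 libraries vary and nothing wider. The residual holds noise and any difference between the hypoxia responses in 3D and 2D together. A gene whose responses differ thus has a larger SE and passes less easily. A single gene tested alone by an exact two-sided permutation of 2 against 2 libraries could not go below 0.3333. By the limma test 1 of the 10 genes changed under hypoxia, SLC9A3R1, which fell. Of all genes 4.84% were called, 3.2% higher and 1.64% lower. Of the 10 genes 6 had an unadjusted p under 0.05 for hypoxia, where 3242 of all 12663 genes did. For culture these counts were 5 of the 10 and 5097 of all genes. With culture 4 of the 10 changed, where 22% of all genes were called, 10.4% higher and 11.6% lower. SLC9A3R1 and CRB3 rose in 3D, and PODXL and SCRIB fell. Among all genes the test called 405 up and 208 down under hypoxia and 1313 up and 1472 down in 3D. Rescaling each library to an FPKM sum of 1000000 put 13682 genes in the test. It then called 258 up and 362 down under hypoxia, and 785 up and 3141 down in 3D. Without the filter on low values, limma called 0 of 26255 genes for either effect, with 2812 genes at an unadjusted p under 0.05 for hypoxia and 4518 for culture. The hypoxia and normoxia libraries did not overlap for 4 of the 10 genes and for 34.2% of all genes, and the 3D and 2D libraries did not overlap for 6 of the 10 and for 55.7% of all genes.

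**Figure D2:**
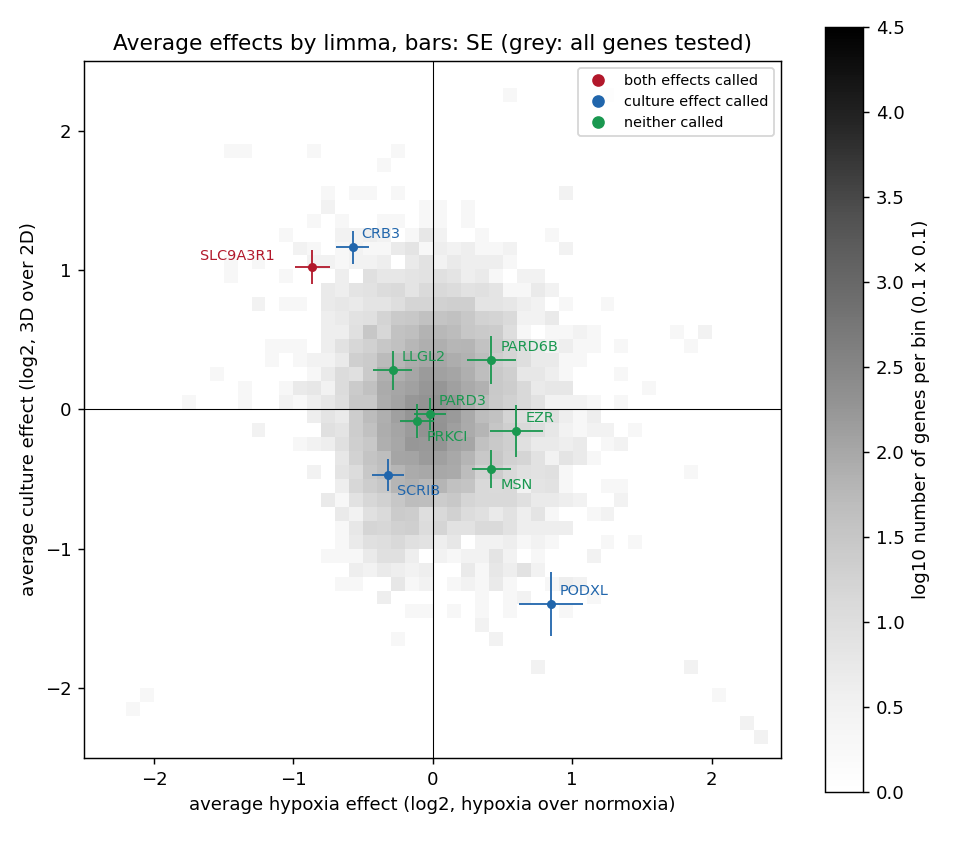
Average log2 effect of hypoxia over normoxia (horizontal axis) and of 3D over 2D (vertical axis) for the 10 genes. Bars are 1 SE from limma. Grey shows the count of tested genes in bins of 0.1, log10 scale. Those of the 12663 genes that lie beyond the axes are not drawn. SLC9A3R1 and CRB3 lie at the upper left, lower in hypoxia and higher in 3D, and PODXL lies at the lower right.

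The Par complex was described first, since it is the core of the apical programme. PARD3, the scaffold that recruits the complex to cell contacts, had 40.8 FPKM in 3D hypoxia, 40.8 in 3D normoxia, 41.1 in 2D hypoxia and 42.4 in 2D normoxia. The 4 libraries were nearly level, and the log2 ratio of 3D hypoxia over 3D normoxia was smaller in size in only 0.490% of all genes. Its average log2 effects were -0.02 ± 0.11 (SE) for hypoxia and -0.03 ± 0.11 for culture (limma adjusted p = 0.929 and 0.853). PRKCI, the atypical protein kinase C of the complex, had 9.22 FPKM in 3D hypoxia, 10.9 in 3D normoxia, 10.7 in 2D hypoxia and 10.7 in 2D normoxia. Only the 3D hypoxia library stood lower, with a log2 ratio of -0.22 to 3D normoxia and a counting error of 0.08, and neither average effect passed (limma adjusted p = 0.609 for hypoxia and 0.635 for culture).

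PARD6B, the adaptor that joins the kinase to its partners, was the lowest of the 10 genes by mean. It had 4.76 FPKM in 3D hypoxia, 4.20 in 3D normoxia, 4.44 in 2D hypoxia and 2.37 in 2D normoxia. A single library, 2D normoxia, was lower than the other three. The hypoxia ratio was therefore 0.15 (log2, counting error 0.11) in 3D and 0.69 (0.07) in 2D, and its average effects were 0.42 ± 0.17 (SE) for hypoxia and 0.36 ± 0.17 for culture, neither past the test (limma adjusted p = 0.203 and 0.185). Per unit of length, PARD6B stood at 0.517 of PRKCI in 3D hypoxia, 0.386 in 3D normoxia, 0.417 in 2D hypoxia and 0.221 in 2D normoxia.

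CRB3 was the Crumbs gene of these cells, since CRB1 and CRB2 had means of 0.0123 and 0.0510 FPKM and count as not expressed. CRB3 had 8.96 FPKM in 3D hypoxia, 13.4 in 3D normoxia, 3.33 in 2D hypoxia and 5.63 in 2D normoxia. Both 3D libraries lay above both 2D libraries, and within each culture the hypoxia library was the lower. In 3D it rose by 1.16 ± 0.12 on the log2 scale (SE, 4 libraries), limma adjusted p = 0.00856, and the ratios behind this were 1.20 in hypoxia and 1.12 in normoxia. These were the largest culture ratios among the genes of the set that were higher in 3D. The hypoxia ratios were -0.54 (counting error 0.19) in 3D and -0.61 (0.17) in 2D. The average hypoxia effect of -0.57 ± 0.12 did not pass (limma adjusted p = 0.0588), and passed when libraries were rescaled to a sum of 1000000 (-0.74, limma adjusted p = 0.0464). In a bulk library, fewer cells that express a gene and less RNA in each cell cannot be told apart. CRB3 shares 0.942% of its exonic bases with DENND1C on the opposite strand and has a processed pseudogene, CRB3P1, and the sources used here do not say how fragments were assigned between them.

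The basolateral genes parted from each other. SCRIB, a scaffold that holds apical proteins off the lateral membrane, had 24.1 FPKM in 3D hypoxia, 29.3 in 3D normoxia, 32.5 in 2D hypoxia and 42.3 in 2D normoxia. It was lower in each 3D library than in either 2D library and lower in hypoxia within each culture, so that 3D hypoxia held the lowest level and 2D normoxia the highest. In 3D it fell by 0.47 ± 0.11 on the log2 scale (SE), limma adjusted p = 0.0405. That call was lost with upper quartile scaling (limma adjusted p = 0.0540) and without the mean-variance trend (0.0563). The hypoxia effect was -0.32 ± 0.11 and did not pass (limma adjusted p = 0.160).

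LLGL2, a basolateral partner that the atypical kinase displaces from the apical side, had 33.6 FPKM in 3D hypoxia, 35.8 in 3D normoxia, 23.8 in 2D hypoxia and 33.7 in 2D normoxia. Only 2D hypoxia stood apart, lower than the other three. Its average effects were -0.29 ± 0.14 (SE) for hypoxia and 0.28 ± 0.14 for culture, and neither passed (limma adjusted p = 0.262 and 0.189). Per unit of length LLGL2 stood above SCRIB in 3D, at 1.40 of its level in hypoxia and 1.22 in normoxia, and below it in 2D, at 0.732 in hypoxia and 0.795 in normoxia.

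SLC9A3R1 was the only gene of the set called in both average effects. It had 41.5 FPKM in 3D hypoxia, 70.0 in 3D normoxia, 18.2 in 2D hypoxia and 37.1 in 2D normoxia. Under hypoxia it fell by 0.86 ± 0.12 on the log2 scale (SE, limma adjusted p = 0.0294), with ratios of -0.74 (counting error 0.06) in 3D and -0.99 (0.05) in 2D. In 3D it rose by 1.02 ± 0.12 (limma adjusted p = 0.0106), with ratios of 1.15 in hypoxia and 0.90 in normoxia. With both changes together, 3D hypoxia stood close to 2D normoxia, at 1.12 times its level. The annotation places an antisense gene, AC016888.1, over 11.3% of the exonic bases of SLC9A3R1, and without a known strand setting their fragments cannot be told apart.

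The related scaffold SLC9A3R2 (NHERF2), which is not one of the 10 genes, was set beside it because it binds the same kind of cargo. It had 129.4 FPKM in 3D hypoxia, 96.4 in 3D normoxia, 36.8 in 2D hypoxia and 49.1 in 2D normoxia. It too rose in 3D, by 1.37 ± 0.21 (SE, limma adjusted p = 0.0147), but its hypoxia ratios had opposite signs, 0.42 in 3D and -0.41 in 2D. The level of SLC9A3R1 was 0.321 of that of SLC9A3R2 in 3D hypoxia, 0.727 in 3D normoxia, 0.495 in 2D hypoxia and 0.756 in 2D normoxia. Their summed level was 170.9 FPKM in 3D hypoxia and 166.4 in 3D normoxia, against 55.0 in 2D hypoxia and 86.2 in 2D normoxia.

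EZR and MSN were the most abundant of the 10 genes in every library. EZR had 199.5 FPKM in 3D hypoxia, 103.3 in 3D normoxia, 175.0 in 2D hypoxia and 146.2 in 2D normoxia. Both hypoxia libraries lay above both normoxia libraries, with a gap much wider in 3D (log2 ratio 0.94, counting error 0.03) than in 2D (0.26, counting error 0.02). The 3D ratio was larger in size than that of 95.5% of all genes. The average hypoxia effect was 0.60 ± 0.19 (SE) and did not pass (limma adjusted p = 0.128). The culture ratio was 0.19 in hypoxia and -0.50 in normoxia, and the average of -0.15 ± 0.19 did not pass either (limma adjusted p = 0.576).

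MSN had 153.0 FPKM in 3D hypoxia, 126.0 in 3D normoxia, 227.9 in 2D hypoxia and 153.8 in 2D normoxia. It was higher in hypoxia in each culture, with ratios of 0.28 in 3D and 0.56 in 2D, and the 2D hypoxia library stood well above the others. Neither average effect passed, at 0.42 ± 0.14 (SE) for hypoxia (limma adjusted p = 0.136) and -0.43 ± 0.14 for culture (0.0747), and the culture effect passed on rescaling to a sum of 1000000 (-0.63, limma adjusted p = 0.0265). MSN has a processed pseudogene, MSNP1, which may share fragments with it.

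Ezrin, moesin and radixin (RDX) are close relatives that can stand in for each other, so their proportions were compared per unit of length. EZR made up 52.5% of their summed FPKM in 3D hypoxia, 41.0% in 3D normoxia, 38.8% in 2D hypoxia and 43.9% in 2D normoxia. MSN made up 40.2% in 3D hypoxia, 49.998% in 3D normoxia, 50.5% in 2D hypoxia and 46.2% in 2D normoxia, so EZR led only in 3D hypoxia, with an EZR to MSN ratio of 1.30, against 0.820 in 3D normoxia, 0.768 in 2D hypoxia and 0.951 in 2D normoxia. RDX stayed between 7.28% and 10.7%. The sum itself was 380.1 FPKM in 3D hypoxia and 252.0 in 3D normoxia, and 451.1 in 2D hypoxia and 332.9 in 2D normoxia. SLC9A3R1 and EZR differed in opposite directions with oxygen, and the level of SLC9A3R1 was 0.208 of that of EZR in 3D hypoxia, 0.678 in 3D normoxia, 0.104 in 2D hypoxia and 0.254 in 2D normoxia.

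**Figure D3:**
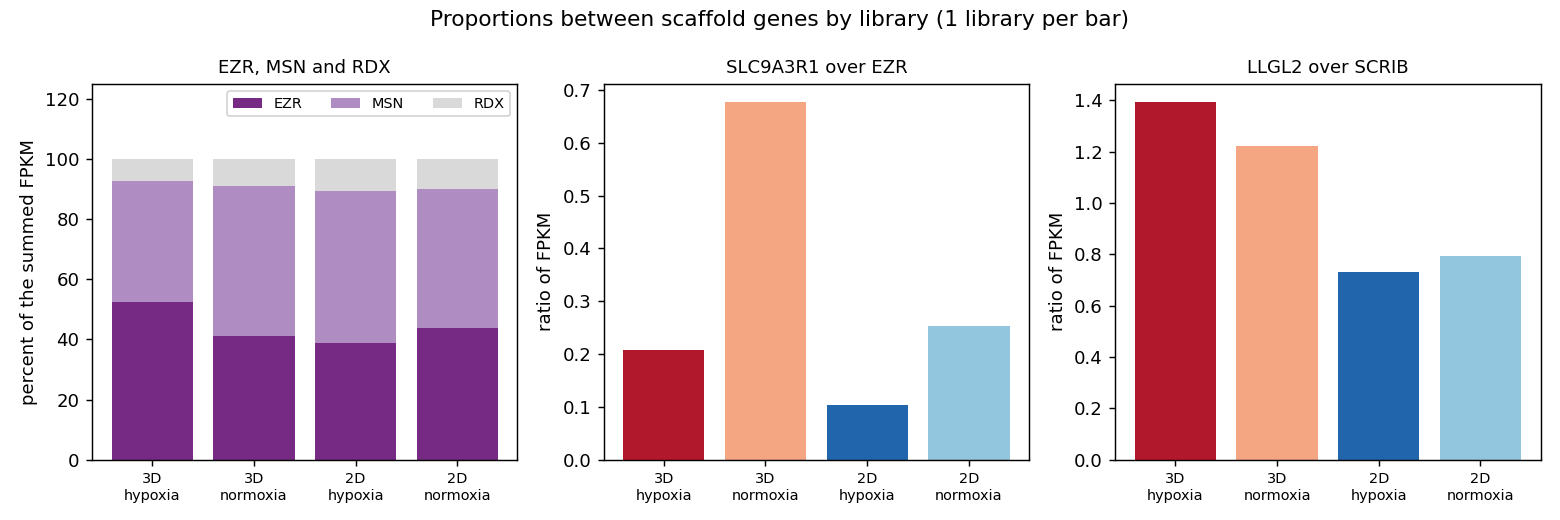
Left, share of EZR, MSN and RDX in their summed FPKM, in percent. Middle and right, the ratio of FPKM of SLC9A3R1 over EZR and of LLGL2 over SCRIB. Each bar is 1 library. EZR has the largest share in 3D hypoxia, SLC9A3R1 per EZR is lower in hypoxia than in normoxia in both cultures, and LLGL2 exceeds SCRIB in the 3D libraries.

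PODXL had the widest range. It had 6.74 FPKM in 3D hypoxia, 4.98 in 3D normoxia, 27.2 in 2D hypoxia and 10.3 in 2D normoxia. Both 3D libraries lay below both 2D libraries, and hypoxia was the higher in each culture. In 3D it fell by 1.39 ± 0.23 on the log2 scale (SE, limma adjusted p = 0.0176), with ratios of -1.87 (counting error 0.10) in hypoxia and -0.92 (0.12) in normoxia. The hypoxia ratio was 0.37 (counting error 0.15) in 3D and 1.32 (0.06) in 2D, the 2D ratio being larger in size than that of 98.0% of all genes, and the average of 0.85 ± 0.23 did not pass (limma adjusted p = 0.0975). Levels of PODXL per SLC9A3R1 were 0.162 in 3D hypoxia, 0.0711 in 3D normoxia, 1.495 in 2D hypoxia and 0.278 in 2D normoxia.

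PODXL is also a gene of endothelial cells. Their markers PECAM1, CDH5, VWF, KDR and TEK were all below a mean of 1 FPKM, with a sum of 0.172 FPKM in 3D hypoxia, 0.189 in 3D normoxia, 0.177 in 2D hypoxia and 0.475 in 2D normoxia, so they were near 0 in the library where PODXL was highest. Of 5 fibroblast markers, COL1A1 alone reached the limit of expression, and the list summed to 0.697 FPKM in 3D hypoxia, 0.870 in 3D normoxia, 13.4 in 2D hypoxia and 2.43 in 2D normoxia. In 2D hypoxia COL1A1 alone had 13.15 FPKM of that sum, and the next highest marker, PDGFRA, had 0.165 FPKM. The sum was highest where PODXL was highest, and its part in the result was not tested. Of 5 blood cell markers CD14 alone reached that mean, and this list was lowest in 2D hypoxia, at 3.45 FPKM, against 9.50 to 11.4 FPKM elsewhere. The profiles closest to PODXL over the 4 libraries, by Euclidean distance between centred log2(FPKM + 1) values, were those of ESAM (an adhesion molecule of endothelial junctions, distance 0.153), MARCH4 (a membrane-bound ubiquitin ligase, 0.183) and EPB41L2 (a membrane skeleton protein of the band 4.1 family, 0.205). ESAM had 1.59 FPKM in 3D hypoxia, 1.29 in 3D normoxia, 8.86 in 2D hypoxia and 2.83 in 2D normoxia. MARCH4 had 0.395 FPKM in 3D hypoxia, 0.0721 in 3D normoxia, 4.83 in 2D hypoxia and 0.990 in 2D normoxia. Both of its 3D values lay below the 1 FPKM added before the log. Over these 4 points 41 genes lay within a distance of 0.5.

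The pairs of libraries were then compared by size, with no test, counting a gene at 2-fold or more on the log2(FPKM + 1) scale. Between 3D hypoxia and 3D normoxia 0 of the 10 genes reached 2-fold, where 4.02% of all genes did, 2.91% higher and 1.11% lower. EZR (0.94) and SLC9A3R1 (-0.74) came nearest. Between 2D hypoxia and 2D normoxia PODXL was the 1 gene that reached it, being higher, where 3.6% of all genes did, 2.01% higher and 1.59% lower, and SLC9A3R1 lay just short at -0.99. Between 3D normoxia and 2D normoxia CRB3 was the 1 gene, being higher, where 4.47% of all genes reached 2-fold, 1.98% higher and 2.49% lower. On rescaling to a sum of 1000000 CRB3 stood just under the limit (0.998) and PODXL was the 1 gene past it, being lower (-1.16). Between 3D hypoxia and 2D hypoxia 3 of the 10 genes did, CRB3 and SLC9A3R1 higher and PODXL lower, where 6.82% of all genes did, 3.8% higher and 3.02% lower, and on that rescaling SLC9A3R1 stood just under the limit (0.971). The median log2 ratio taken without sign was 0.28 for the 10 genes against 0.22 for all genes between 3D hypoxia and 3D normoxia, 0.52 against 0.21 in 2D, 0.45 against 0.29 for culture in hypoxia, and 0.51 against 0.29 for culture in normoxia.

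**Figure D4:**
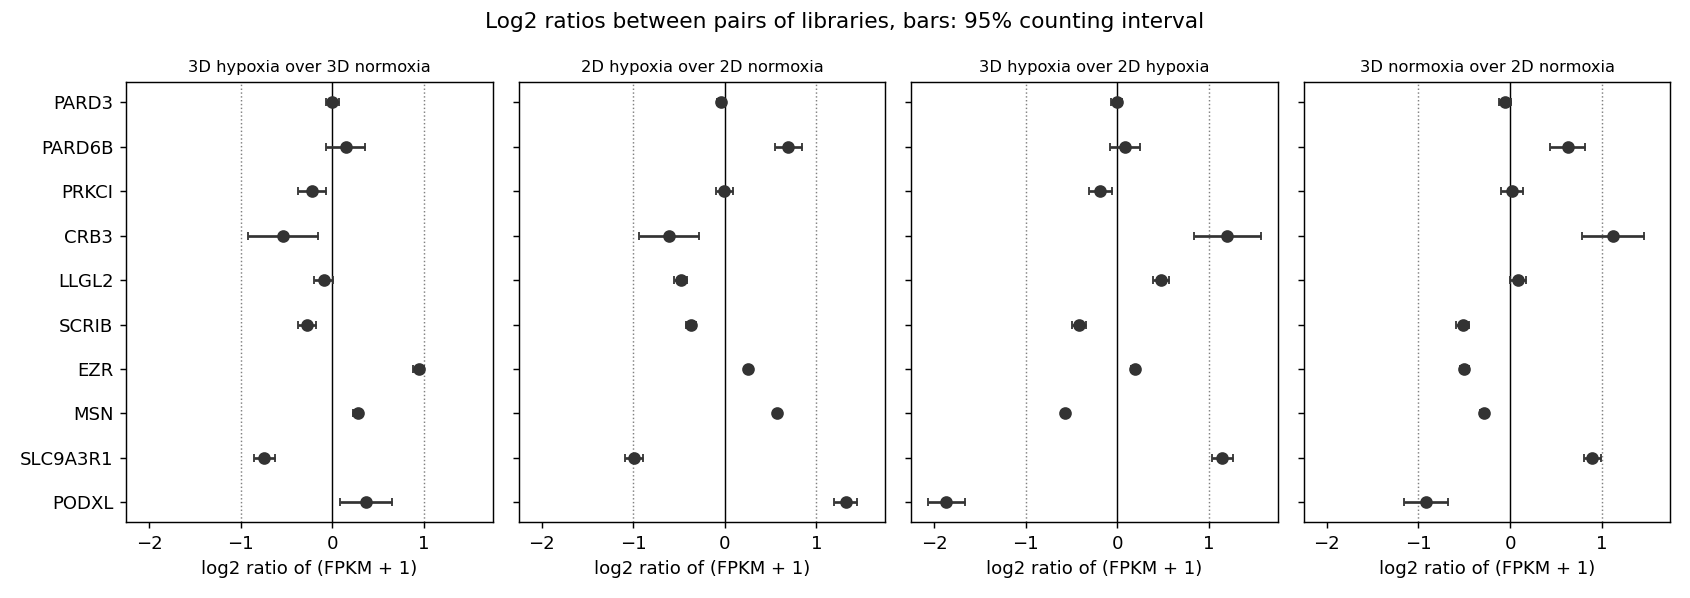
Log2 ratio of FPKM + 1 (horizontal axis) of each gene for 4 pairs of libraries, with 95% intervals from counting error only and dotted lines at 2-fold. PODXL in 2D lies beyond the line for hypoxia, CRB3 lies beyond it for both culture pairs, and SLC9A3R1 and PODXL lie beyond it for culture in hypoxia.

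Whether a gene's response to hypoxia differed between 3D and 2D was described by the difference of the log2 ratios, 3D minus 2D, which leaves no error term. The same difference makes up the residual of the additive model and so enters the SE of each average effect. None of the 10 genes (0) reached 2-fold in this difference, where 2.73% of all genes did, 1.87% upwards and 0.861% downwards. PODXL had the largest, -0.95 with a counting error of 0.16, then EZR at 0.69 (0.03) and PARD6B at -0.54 (0.13). CRB3 at 0.08 (0.26) lay within its counting error, and PARD3 at 0.04 (0.04) was about as large as its own. Set directly against 2D normoxia, 3D hypoxia had log2 ratios of 0.78 for PARD6B, 0.59 for CRB3, 0.45 for EZR, -0.55 for PODXL and -0.79 for SCRIB, while MSN (-0.01), LLGL2 (-0.004) and PARD3 (-0.05) stood within 0.1 of 0.

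Other genes of the polarity complexes were counted in the same way. Of 26 listed partners of the Par, Crumbs and Scribble complexes and of the LKB1 kinase, 20 were tested. With culture 1 of the 20 rose and 0 fell, where 22% of all genes were called. The gene that rose was CAB39, a cofactor that activates LKB1 (0.51 ± 0.12 SE, limma adjusted p = 0.0357), and that call was lost on rescaling to a sum of 1000000 (0.0943) and without the trend (0.0515). After that rescaling 0 of the list were called higher and 5 lower, where 785 of 13682 genes were called higher and 3141 lower. For hypoxia 0 changed by limma, with 2 of the 20 at an unadjusted p under 0.05, where 3242 of all 12663 genes were. The list's medians were 0.01 for hypoxia and 0.00 for culture, against -0.01 and -0.03 over all genes. Of the members with the largest ratios, PARD3B, a relative of PARD3, had 3.79 FPKM in 3D hypoxia, 2.02 in 3D normoxia, 3.66 in 2D hypoxia and 1.9002 in 2D normoxia, an average hypoxia effect of 0.68 ± 0.14 that did not pass (limma adjusted p = 0.0627). LLGL1, a relative of LLGL2, had a culture effect of -0.45 ± 0.13 (limma adjusted p = 0.0654), and PARD6A, a relative of PARD6B, a hypoxia effect of -0.34 ± 0.14 (0.206).

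Of 14 partners of the ezrin, radixin and moesin scaffold, 12 were tested, and with culture 2 rose and 1 fell, near the 22% called among all genes. On rescaling to a sum of 1000000, 2 were called higher and 5 lower, where 785 of 13682 genes were called higher and 3141 lower. Beside SLC9A3R2, EPS8, an actin-capping protein of microvilli, rose by 0.92 ± 0.12 (SE, limma adjusted p = 0.0106), with 43.9 FPKM in 3D hypoxia and 43.7 in 3D normoxia, against 21.9 in 2D hypoxia and 23.4 in 2D normoxia. RDX fell by 0.65 ± 0.13 (limma adjusted p = 0.0239). NF2, the merlin tumour suppressor of the same family, had 7.12 FPKM in 3D hypoxia, 7.18 in 3D normoxia, 17.5 in 2D hypoxia and 9.33 in 2D normoxia, a culture effect of -0.76 ± 0.21 that did not pass (limma adjusted p = 0.0534), nor did that of PALLD, an actin-associated protein (-0.63 ± 0.19, 0.0650). Both passed on that rescaling (limma adjusted p = 0.0296 for NF2 and 0.0315 for PALLD) and with the filter raised to 5 FPKM (0.0349 and 0.0433). For hypoxia 0 of the 12 changed by limma, with 3 at an unadjusted p under 0.05, where 3242 of all 12663 genes were. The medians were 0.11 for hypoxia and -0.17 for culture.

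Of 20 genes of apical trafficking, 19 were tested and RAB25 was listed at 0 in all 4 libraries. In 3D 3 of the 19 rose and 1 fell, near the 22% called among all genes. After rescaling to a sum of 1000000, 2 were called higher and 3 lower, where 785 of 13682 genes were called higher and 3141 lower. RAB11A and RAB11B, small GTPases of the recycling route to the apical surface, rose by 0.65 ± 0.11 and 0.59 ± 0.14 (SE, limma adjusted p = 0.0197 and 0.0347), and the call of RAB11B was lost on rescaling to a sum of 1000000 (0.0773). RAB27B, a GTPase of secretory vesicles, rose by 1.09 ± 0.15 (limma adjusted p = 0.0120). SYTL2, an effector of RAB27 proteins, fell by 1.28 ± 0.23 (limma adjusted p = 0.0199), with 3.52 FPKM in 3D hypoxia, 1.76 in 3D normoxia, 13.97 in 2D hypoxia and 3.93 in 2D normoxia. For hypoxia 0 of the 19 changed by limma, with 6 at an unadjusted p under 0.05, where 3242 of all 12663 genes were. SYTL2 was the nearest (1.16 ± 0.23, limma adjusted p = 0.0513), passing with a pseudocount of 0.1 (0.0357) and with the filter on low values raised to 5 FPKM (0.0498). The medians were 0.16 for hypoxia and 0.13 for culture.

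The last list held 12 genes of matrix contact and actomyosin contraction, known for orienting the apical-basal axis, and all were tested. In 3D 0 of the 12 rose and 4 fell, where 10.4% of all genes were called higher and 11.6% lower. MYH9, the heavy chain of nonmuscle myosin IIA, fell by 1.43 ± 0.13 (SE, limma adjusted p = 0.00671), with 179.8 FPKM in 3D hypoxia, 76.9 in 3D normoxia, 497.6 in 2D hypoxia and 205.1 in 2D normoxia. ITGB1, the integrin beta-1 subunit that binds laminin and collagen, fell by 0.64 ± 0.15 (limma adjusted p = 0.0347). Under hypoxia MYH9 rose by 1.24 ± 0.13 (limma adjusted p = 0.0120), the 1 gene of the list called. MYL9, a myosin light chain, had 4.43 FPKM in 2D hypoxia and 0.155 to 0.291 FPKM in the other three libraries. PRKCA, a protein kinase C isoform, had a culture effect of 0.42 ± 0.15 that did not pass (limma adjusted p = 0.0921). The medians were 0.37 for hypoxia and -0.33 for culture. MYH9 was higher in hypoxia and lower in 3D, signs it shared with PODXL and also with MSN, RDX, ITGB1 and SYTL2. The share of all genes with these signs is not given here, so they say nothing particular to these genes.

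**Figure D5:**
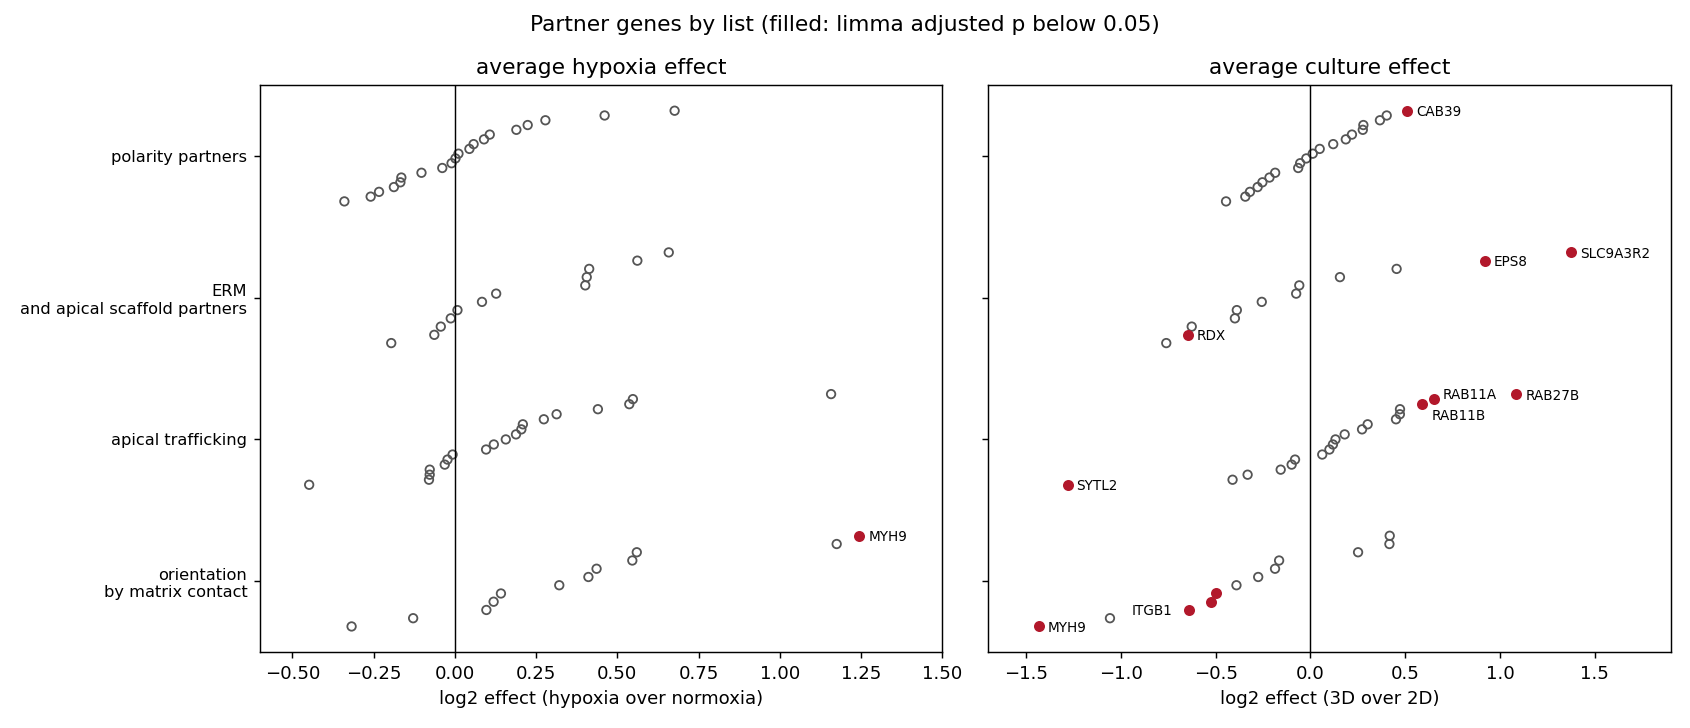
Average log2 effect of hypoxia over normoxia (left) and of 3D over 2D (right) for each tested gene of the 4 partner lists, 1 point per gene. Filled points passed limma at an adjusted p below 0.05. MYH9 is the only filled point for hypoxia, and for culture the lists from top to bottom have 1, 3, 4 and 4 filled points.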

How the data were processed

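Total RNA of A549 cells was sequenced from a stranded mRNA library, 1 library for each of the 4 settings. The authors deposited 1 table of FPKM values per library, per the file headers. Tools named in the submitters' processing notes were Cuffdiff 2.2.1, SAMtools 0.1.18, Bowtie2 2.2.8 and TopHat2 2.1.1, with build hg19. Which annotation and strand setting were used, and the read depth, is not stated there.

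Genes whose mean reached 1 FPKM were kept, and log2(FPKM + 1) was fitted with limma 3.58.1 in R 4.3.3 (additive model of culture and oxygen, trended prior, Benjamini-Hochberg adjustment over all genes kept, threshold 0.05). A fold on this scale understates the change of low genes. The fit was tested on simulated data. Depth was estimated from the low values that recur most often once FPKM is multiplied by length, over 2134 single-transcript genes, and counting errors follow from it. Promoter windows came from RefSeq, build GRCh38.p14, gene overlaps from GENCODE 29. Alternatives were the pseudocount, the filter, the scaling, the fold limit and the prior. The text names all 10 genes, up to 4 genes of each partner list with the largest ratio in a pair plus any called but 2, and the 3 profiles nearest to the gene of the widest range, with CA9 as a check. Those 2 called genes, of the matrix contact list, are not reported here. The genes and the lists were chosen with earlier results of these data known.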

Additional observations from a re-analysis of the deposited data

Results flagged for a closer look

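Among the 10 genes and the partner genes named above, 9 had ratios of opposite sign in the 2 cultures, or at the 2 oxygen levels. Partner genes that are not named include further such cases. With 1 library in each setting, none of these differences was tested. The share of all genes with opposite signs is not given here, so the count of 9 says nothing particular to these genes. EZR had a log2 ratio of 3D over 2D of 0.19 in hypoxia and -0.50 in normoxia. SLC9A3R2 had a ratio of hypoxia over normoxia of 0.42 in 3D and -0.41 in 2D, and RAB27B had 0.15 in 3D and -0.30 in 2D. LLGL1 had -0.28 in 3D and 0.07 in 2D, and NF2 had -0.0109 in 3D and 0.84 in 2D. PARD6A had a ratio of 3D over 2D of -0.0413 in hypoxia and 0.28 in normoxia, and PRKCI had -0.19 in hypoxia and 0.02 in normoxia. That last ratio lay within its counting error of 0.06. For PARD3 and EPS8 the 3D hypoxia ratio was next to 0, at 0.000711 and 0.00715, beside -0.04 and -0.09 in 2D.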

How the results depend on the processing

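No paired analysis was possible because each group has 1 library and the labels give no replicate numbers to block on. The additive model itself compares the oxygen levels within each culture. Leaving out a library would leave no residual degree of freedom. Without the filter, 0 genes and 0 of the 10 were called for either effect. Rescaling to a sum of 1000000 shifted the median of all genes by -0.12 and -0.13 for hypoxia in 3D and 2D and by -0.18 for culture. It gave 2 of the 10 genes called for hypoxia, where 620 of 13682 genes were called. It gave 2 of the 10 at 2-fold between 2D hypoxia and 2D normoxia. It also turned the sign of the hypoxia effect of SLC9A3R2 (-0.13) and of the culture effects of PARD3B (-0.11) and PARD6A (-0.048), none called. Upper quartile scaling gave 286 genes called for hypoxia and a fit without trend 366, against 613. A pseudocount of 0.1 gave 2 of the 10 at 2-fold between 2D hypoxia and 2D normoxia and 2 between 3D normoxia and 2D normoxia. The counts of the 10 genes at 2-fold or 1.5-fold in this paragraph stand without a share of all genes. They say nothing particular to the set. A limit of 1.5-fold gave 2 between 3D hypoxia and 3D normoxia, 4 between 2D hypoxia and 2D normoxia, 4 between 3D normoxia and 2D normoxia, and 2 in the difference of responses. Of 58 counts under the alternatives, of the 10 genes and of all genes called, 44 stayed within 1.5 times. That does not say that they hold the same genes. A change of filter leaves a gene's ratio between a pair of libraries as it was, so pair counts under it could not show a dependence. PARD6B fell below the filter when that was raised to 5 FPKM. Few fragments limit CRB3 in all 4 libraries and PODXL in both 3D libraries.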
